A study of Arabidopsis thaliana with 6 samples.

Results

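The genes of sulfate assimilation described here are 10 members of the 24340 genes measured in *ap1/cal* shoot apices of *Arabidopsis thaliana*. They were chosen by name: the APS reductases *APR1*, *APR2* and *APR3*, the ATP sulfurylases *ATPS1*, *ATPS2*, *ATPS3* and *ATPS4*, the sulfite reductase *SIR*, and the sulfur deficiency genes *SDI1* and *LSU1*. All 10 were matched by locus identifier and all 10 were among the 18966 genes tested. RNA-seq compared apices kept in mock solution with apices exposed to sodium nitroprusside (SNP), a donor of nitric oxide, to find transcripts that respond in meristems. Both groups were *ap1/cal* double mutants in the Col-0 background, taken from 6-week inflorescences, and each had 3 libraries. Silwet, a wetting agent, was at 0.025% in the mock and SNP treatments alike, and both lasted 24 h. SNP was given at 1 mM. The double mutant piles up inflorescence and young floral meristems that stop developing, so the tissue is a stand-in for a wild-type apex. SNP also carries iron and cyanide, and with no control for either in these libraries their effects and that of nitric oxide cannot be told apart.

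Plants take up sulfate through transporters and activate it with ATP. ATP sulfurylase joins sulfate to ATP and makes adenosine 5'-phosphosulfate (APS), the point where the pathway branches. APS reductase, which is held to be the main control point, turns APS into sulfite, and sulfite reductase turns sulfite into sulfide, which is built into cysteine and from there into glutathione and methionine. On the other branch, APS kinase makes PAPS, the donor for sulfated compounds such as glucosinolates. *SDI1* and *LSU1* take no part in the reactions. Their transcripts are known to accumulate when plants lack sulfate, SDI1 is known to hold back glucosinolate synthesis, and miR395, a microRNA that accumulates in the same condition, targets ATP sulfurylases and the transporter gene *SULTR2;1*.

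Among the members, the sequence target of miR395 separates the ATP sulfurylase isoforms, so the microRNA and the stretches complementary to it are shown. The 6 annotated *MIR395* loci give 2 mature forms that share a seed (bases 2 to 8, in capitals). The first comes from *MIR395a*, *MIR395d* and *MIR395e*, the other from *MIR395b*, *MIR395c* and *MIR395f*. Sequences and positions are from RefSeq, build TAIR10.1.
miR395a: cUGAAGUGuuugggggaacuc
miR395b: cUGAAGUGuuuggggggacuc

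The nearest complementary stretch in each coding sequence is printed 5' to 3', with bases that pair with miR395a in capitals and every other base, G:U pairs included, in lower case. The *ATPS1* stretch lies at chr3:8113164-8113184 (plus strand), that of *ATPS3* at chr4:8414958-8414978 (minus), that of *ATPS4* at chr5:17591121-17591141 (minus) and that of *SULTR2;1* at chr5:3193268-3193288 (plus). The best stretch of *ATPS2*, at chr1:6915836-6915856 (minus), is given for contrast.
ATPS1: GAGTTCCtCCAAACtCTTCAt
ATPS3: GAGTTCCtCCAAACtCTTCAt
ATPS4: GAGTTCCtCCAAACACTTCAt
SULTR2;1: aAGTTCtCCCAAACACTTCAa
ATPS2: GctcTCtCCtAAACAgcTtAG

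*ATPS4* has 2 mismatches over 21 bases, *ATPS1*, *ATPS3* and the transporter gene have 3 each, and *ATPS2* has 8. The other members have between 8 and 11. Of 27437 coding sequences, 7 (0.0255%) hold a stretch with at most 3 mismatches. The *MIR395* loci are not among the genes measured, so their levels could not be described.

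The libraries held 51879530 to 99089586 reads, as recovered from the steps between low TPM values. TPM, a share of all transcripts corrected for gene length, is a level per gene length, so levels of different genes can be compared. Tests used limma on log2(TPM + 0.5) with Benjamini-Hochberg adjustment over all 18966 genes, and a gene was called at an adjusted p under 0.05. The limma p-values set the group difference against the spread between these libraries, drawn toward that of other genes of similar level. Fold changes on this scale understate changes of low genes. In bulk tissue, fewer cells of a type and less RNA per cell cannot be told apart. Meristem markers were present, with summed levels of 396.6 to 458.7 TPM in mock and 345.6 to 380.0 TPM in SNP libraries, and of 6 *UFO* was called higher (log2 fold change 0.68, adjusted p = 0.0149) and *ANT* lower (-0.52, adjusted p = 0.011). Mature leaf markers summed to 4414 to 5095 TPM and 4684 to 5509 TPM, and 0 of 4 were called with limma. Root markers, 4 of 5 in the table, summed to 5.97 to 10.4 TPM in mock and 21.9 to 42.2 TPM in SNP libraries. *WOX5* and *PYK10* were called higher, and *PRP3* and *EXPA7* were at 0 to 2 reads in each library. The mock mean of *WOX5*, 0.429 TPM, lay below the filter of 0.5 TPM. It entered the test only through the SNP libraries, where it was higher (2.87 TPM), and rested on 10 to 161 reads. The part of meristem, leaf and root cells in the results was not tested.

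*ATPS1* and *SIR* rose after SNP, and no member was called lower. These 2 of 10 stand beside 29.6% of all tested genes called in either direction, 16.6% higher and 13% lower. At an unadjusted limma p under 0.05 the members numbered 6, of which 4 were higher and 2 lower, beside 42.1% of all tested genes. When the limits were instead 1.5 on the fold and 0.01 on the raw p, *ATPS1* and *SIR* again were the 2 members that passed, beside 16.9% of all tested genes (10.5% higher and 6.4% lower). The groups did not overlap for 4 members, all with higher SNP libraries (*APR3*, *ATPS1*, *SIR* and *LSU1*), beside 51.2% of all tested genes in either direction and 29.2% in that direction. The share of all tested genes lower without overlap was 22%, and no member was among them. The median log2 fold change was 0.13 over the members and 0.06 over all tested genes.

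**Figure D1:**
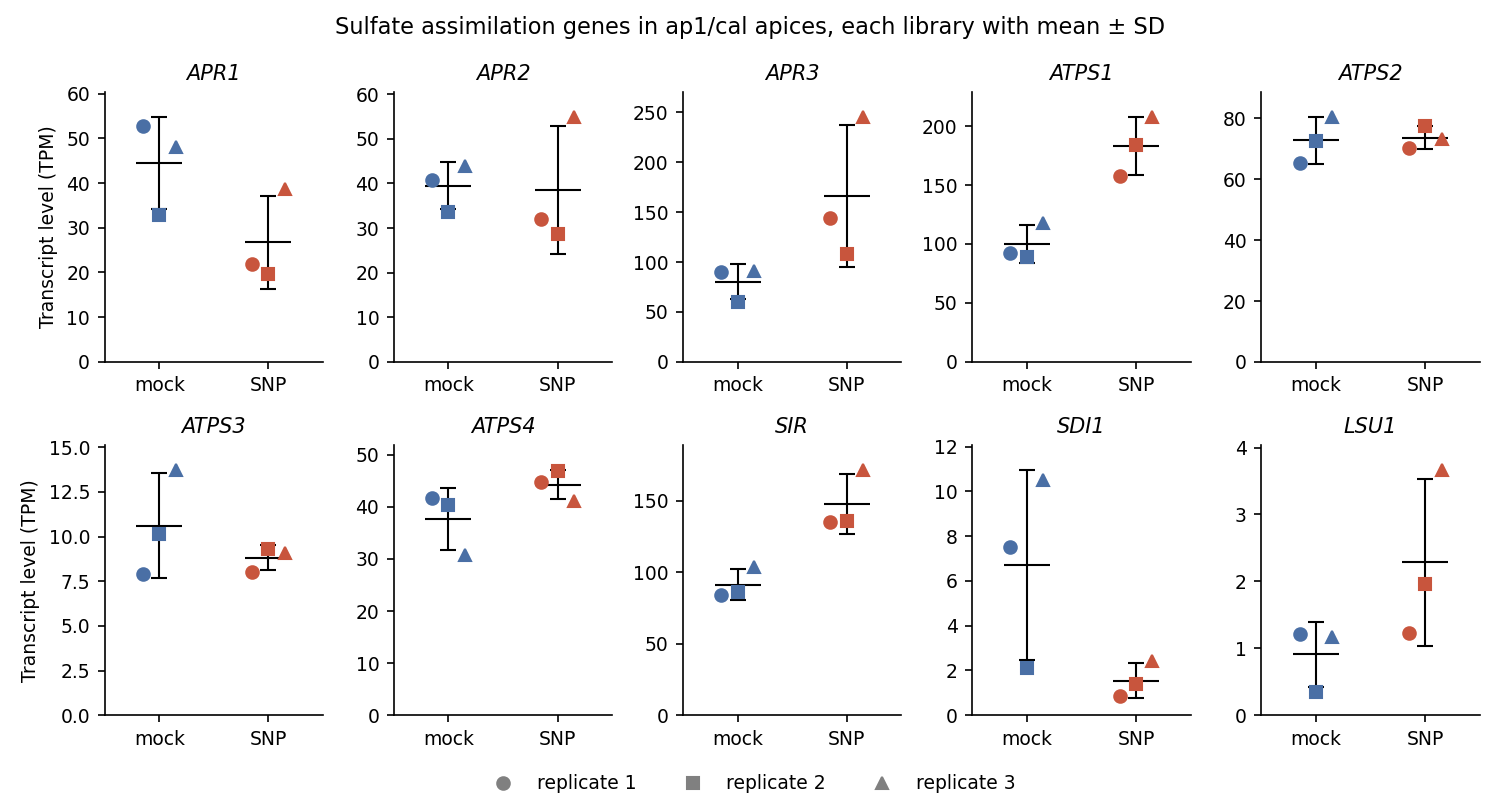
Transcript level (TPM, vertical axes from 0) of the 10 genes in each mock (blue) and SNP (red) library, with the replicate number as symbol and the mean ± SD as lines. All 3 SNP libraries lie above all 3 mock libraries for *APR3*, *ATPS1*, *SIR* and *LSU1*, while the groups overlap for the other 6.

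In mock apices the levels spanned from 99.8 ± 16.1 TPM (SD, n = 3) for *ATPS1* to 0.912 ± 0.487 TPM (SD, n = 3) for *LSU1*. *SIR*, *APR3* and *ATPS2* followed *ATPS1*, and each neighbouring pair in this order overlapped between libraries. *APR1*, *APR2* and *ATPS4* lay below them and overlapped with each other. *ATPS3* came next, overlapping with *SDI1*, and *LSU1* was lowest without overlap.

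ATP sulfurylase opens the pathway, and 1 of its 4 genes rose. *ATPS1* (AT3G22890, chr3:8112614-8115024, plus strand), which in *Arabidopsis* encodes a plastid form of the enzyme, stood at 92.4, 88.6 and 118.2 TPM in the mock libraries and at 157.6, 184.3 and 207.5 TPM in the SNP libraries. The lowest SNP library was above the highest mock library. The log2 fold change was 0.88 (SE 0.15, 95% interval 0.53 to 1.22, adjusted p = 0.0059), a 1.84-fold rise. Each of the 16 alternatives kept this call, and the log2 fold change ranged from 0.78 to 1.00.

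The other ATP sulfurylase genes did not pass the test. *ATPS2* (AT1G19920, chr1:6914518-6916823, minus strand) had 65.2, 72.4 and 80.6 TPM in mock and 70.2, 77.6 and 73.2 TPM in SNP libraries, so the groups lay within each other. Its log2 fold change was 0.02 (95% interval -0.22 to 0.26, adjusted p = 0.887). *ATPS3* (AT4G14680, chr4:8413263-8415650, minus strand) had the lowest level of the family, at 7.89, 10.2 and 13.7 TPM in mock and 8.01, 9.33 and 9.08 TPM in SNP libraries. All 3 SNP values fell inside the mock range, and the log2 fold change was -0.22 (95% interval -0.69 to 0.24, adjusted p = 0.425). *ATPS4* (AT5G43780, chr5:17589394-17591737, minus strand) was at 41.7, 40.4 and 30.8 TPM in mock and 44.8, 46.8 and 41.2 TPM in SNP libraries. A single SNP library lay below the highest mock library, and the log2 fold change was 0.24 (95% interval -0.07 to 0.56, adjusted p = 0.206). The genes with a near-complete miR395 stretch thus included *ATPS1*, which rose, and *ATPS3* and *ATPS4*, which were not called.

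Since TPM is a level per length, the 4 genes could be added. The ATP sulfurylase sum was 207.2, 211.5 and 243.3 TPM in mock and 280.6, 318.0 and 330.9 TPM in SNP libraries. The groups did not overlap, and the 2-sided exact permutation p was 0.1, the smallest that 3 against 3 libraries allow. *ATPS1* made up 45.0% ± 3.38 of the sum in mock and 58.9% ± 3.37 in SNP libraries (SD, n = 3, exact permutation p = 0.1). The share of *ATPS2* was 32.9% in mock and 23.8% in SNP libraries, and that of *ATPS3* was 4.75% and 2.84%, each without overlap. The share of *ATPS4* overlapped between groups (17.3% and 14.4%, exact permutation p = 0.3). In all, 31 sums, shares and ratios were compared, and after adjustment none can be below 0.1. The ratios between genes were chosen after their values had been seen.

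**Figure D2:**
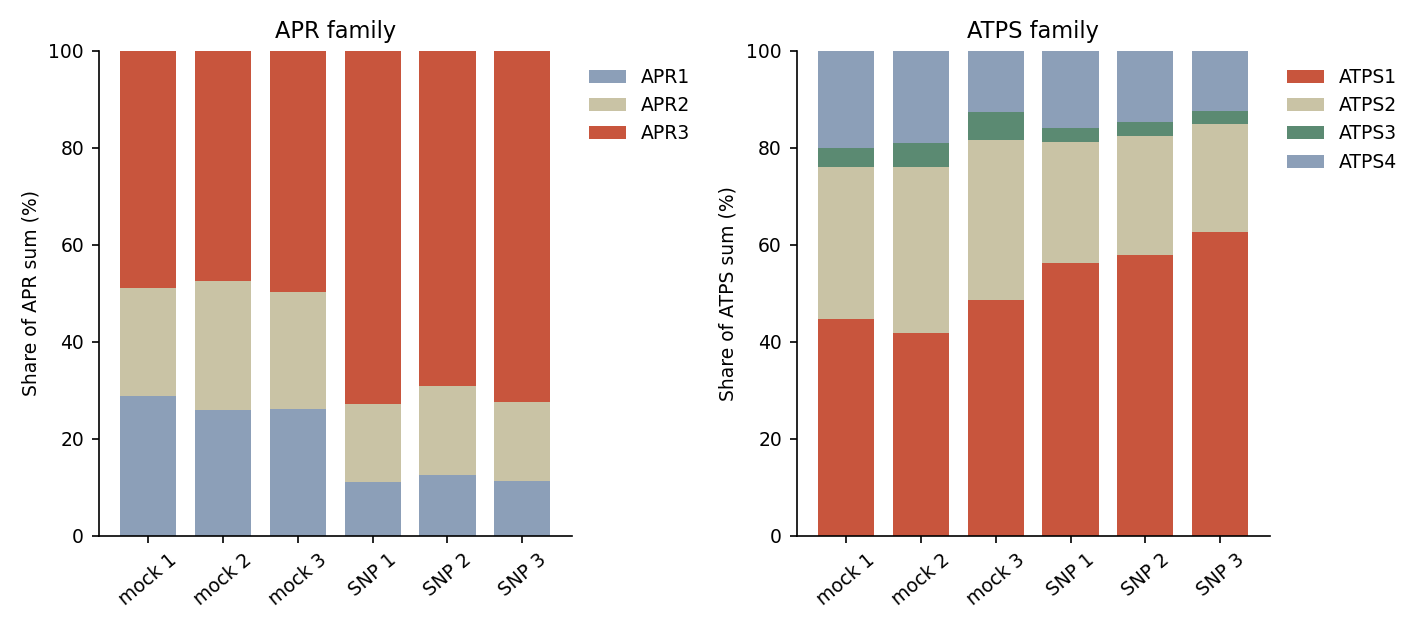
Share of each isoform in the summed TPM of its family (vertical axis, %), with a bar for each of the 6 libraries. *APR3* takes 47.5 to 49.8% of the APS reductase sum in mock and 69.1 to 72.9% in SNP libraries, and *ATPS1* takes 41.9 to 48.6% and 56.2 to 62.7% of the ATP sulfurylase sum.

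The 3 APS reductase genes did not pass the test, yet their proportions differed between the groups. *APR3* (AT4G21990, chr4:11657008-11659167, minus strand) had 89.8, 60.1 and 91.2 TPM in mock and 144.5, 108.0 and 245.6 TPM in SNP libraries. Every SNP library lay above every mock library, but the SNP libraries spread widely. The log2 fold change was 0.98 (SE 0.31, 95% interval 0.26 to 1.71) with an adjusted p of 0.0507. Leaving out single libraries moved this value between 0.66 (without SNP replicate 3, adjusted p = 0.107) and 1.25 (without SNP replicate 2, adjusted p = 0.0318). *APR3* passed in 2 of these 6 settings, the other being without mock replicate 1 (1.07, adjusted p = 0.0455), and the highest adjusted p was 0.129 (0.79, without mock replicate 2).

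*APR1* (AT4G04610, chr4:2324878-2327064, plus strand) had 52.7, 32.9 and 48.0 TPM in mock and 21.8, 19.6 and 38.7 TPM in SNP libraries. SNP replicate 3 lay above mock replicate 2, so the groups overlapped. The log2 fold change was -0.76 (SE 0.28, 95% interval -1.43 to -0.10, adjusted p = 0.0834). When each library was left out in turn, *APR1* passed in 1 of 6 settings, without SNP replicate 3 (-1.06, adjusted p = 0.0271), and at the other end came to -0.58 without SNP replicate 2 (adjusted p = 0.231). *APR2* (AT1G62180, chr1:22975530-22977885, minus strand) had 40.8, 33.6 and 43.9 TPM in mock and 32.0, 28.7 and 55.0 TPM in SNP libraries. SNP libraries held both the lowest and the highest value, and the log2 fold change was -0.08 (95% interval -0.66 to 0.49, adjusted p = 0.821), with the opposite sign without SNP replicate 1 (0.02) or SNP replicate 2 (0.10).

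The summed APS reductase level was 183.3, 126.6 and 183.2 TPM in mock and 198.4, 156.3 and 339.3 TPM in SNP libraries. The groups overlapped (exact permutation p = 0.4), and the difference of 66.9 TPM came to 12.96 TPM without SNP replicate 3. The make-up of that sum varied far less between replicates than the sum did. *APR1* gave 28.7, 26.0 and 26.2% of it in mock and 11.01, 12.55 and 11.40% in SNP libraries. *APR3* gave 49.0, 47.5 and 49.8% in mock and 72.9, 69.1 and 72.4% in SNP libraries. Both differences, -15.3 and 22.7 percentage points, were without overlap (exact permutation p = 0.1 for each). The share of *APR2* was 24.3% ± 2.15 in mock and 16.9% ± 1.26 in SNP libraries (SD, n = 3, exact permutation p = 0.1).

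Read as a ratio, there was 1.71, 1.83 and 1.90 times as much *APR3* as *APR1* transcript per length in mock libraries. In SNP libraries there was 6.62, 5.51 and 6.35 times as much. The log2 ratio differed by 1.76 between the groups, with SDs of 0.079 in mock and 0.139 in SNP libraries (n = 3, exact permutation p = 0.1). This ratio was chosen after its values had been seen. The coding sequences of *APR1* and *APR3* are 82.4% identical, and none of their 75-base windows occurs elsewhere in the genome, so reads of the length sequenced can be told apart between them.

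The promoters of *APR1* and *APR3* are shown because these near copies differed in the share they took, and that of *SDI1* because it holds both motifs searched. Each is the 250 bases before the annotated start, read in the direction of transcription, with GAGAC (the core of a sulfur-responsive element) and TGACG (the core bound by TGA factors), searched on both strands, in capitals. They lie at chr4:2324628-2324877 (plus strand), chr4:11659168-11659417 (minus) and chr5:19807854-19808103 (minus), build TAIR10.1.
APR1: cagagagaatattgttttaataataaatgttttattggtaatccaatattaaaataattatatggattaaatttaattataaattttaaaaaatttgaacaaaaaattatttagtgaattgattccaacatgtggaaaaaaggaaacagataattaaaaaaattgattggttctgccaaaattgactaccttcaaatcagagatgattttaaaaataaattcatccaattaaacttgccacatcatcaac
APR3: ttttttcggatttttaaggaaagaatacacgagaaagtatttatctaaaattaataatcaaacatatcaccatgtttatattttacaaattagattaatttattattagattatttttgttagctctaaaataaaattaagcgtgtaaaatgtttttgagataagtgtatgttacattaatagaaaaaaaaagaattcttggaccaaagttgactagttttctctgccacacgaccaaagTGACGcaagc
SDI1: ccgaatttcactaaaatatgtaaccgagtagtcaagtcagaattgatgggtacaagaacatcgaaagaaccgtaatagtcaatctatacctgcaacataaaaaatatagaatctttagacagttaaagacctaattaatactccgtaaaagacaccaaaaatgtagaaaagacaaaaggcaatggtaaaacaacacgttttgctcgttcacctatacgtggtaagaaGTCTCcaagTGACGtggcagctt

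GAGAC was found in 1 of 10 member promoters, that of *SDI1*, and in 25.8% of 27443 promoters of this length. TGACG was found in 3 of 10, those of *APR3*, *ATPS3* and *SDI1*, and in 18.6% of all promoters. In *APR3* it begins 10 bases before the start and in *SDI1* 14 bases before it. A match describes the letters only.

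*SIR* (AT5G04590, chr5:1319074-1323364, plus strand), which encodes the only assimilatory sulfite reductase of *Arabidopsis*, rose. It was at 84.2, 86.1 and 103.9 TPM in mock and at 135.3, 135.7 and 171.7 TPM in SNP libraries, without overlap. The log2 fold change was 0.69 (SE 0.13, 95% interval 0.38 to 1.00, adjusted p = 0.00924), a 1.61-fold rise. Its call, too, was kept by the 16 alternatives, over a range of 0.54 to 0.78. *SIR* and *ATPS1* thus changed in the same direction. The log2 ratio of *SIR* to *ATPS1*, also chosen after its values had been seen, was -0.12 in mock and -0.31 in SNP libraries (exact permutation p = 0.1).

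Neither sulfur deficiency gene passed the test, and their fold changes had opposite signs. *SDI1* (AT5G48850, chr5:19805437-19807853, minus strand) had 7.52, 2.10 and 10.5 TPM in mock and 0.835, 1.40 and 2.41 TPM in SNP libraries. SNP replicate 3 lay above mock replicate 2, and these values rest on 38 to 747 reads. The log2 fold change was -1.65 (SE 0.55, 95% interval -2.95 to -0.36, adjusted p = 0.0602). With each library left out in turn, *SDI1* passed in 1 of 6 settings, without mock replicate 2 (-2.27, adjusted p = 0.0088), and came to -1.23 without mock replicate 3 (adjusted p = 0.157) and -1.38 without SNP replicate 1 (adjusted p = 0.173).

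*LSU1* (AT3G49580, chr3:18374908-18375940, minus strand), whose protein in *Arabidopsis* binds many partners under stress, was the lowest member, at 1.21, 0.351 and 1.18 TPM in mock and 1.23, 1.96 and 3.67 TPM in SNP libraries. The groups did not overlap, but SNP replicate 1 exceeded mock replicate 1 by little, and the values rest on 15 to 121 reads. The log2 fold change was 0.95 (SE 0.39, 95% interval 0.03 to 1.88, adjusted p = 0.111). There was 0.161, 0.167 and 0.112 times as much *LSU1* as *SDI1* in mock libraries and 1.48, 1.40 and 1.52 times as much in SNP libraries. The log2 ratio differed by 3.34 (exact permutation p = 0.1), but this pair was chosen after its values had been seen.

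The close relatives of these genes were not called either. *LSU2* and *LSU3* had log2 fold changes of 0.71 (SE 0.41, adjusted p = 0.232) and 0.52 (SE 0.36, adjusted p = 0.314), and *LSU4* was below the filter. *SDI2* had 28.3, 26.0 and 35.1 TPM in mock and 18.6, 14.4 and 28.3 TPM in SNP libraries. Its log2 fold change was -0.58 (SE 0.24, adjusted p = 0.118).

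The order of the replicates within a group was shared by some of the members. For *APR1*, *APR2*, *APR3*, *SDI1* and *LSU1*, mock replicate 2 was the lowest mock library and SNP replicate 3 the highest SNP library in 5 of 5 genes. Among the ATP sulfurylase genes and *SIR* this held for 1 of 5, *ATPS1*, and among all tested genes for 5.11% (969 genes). This division of the members was made after their values had been seen. The log2 deviation of SNP replicate 3 from its group mean was 0.59 for *APR1*, 0.57 for *APR2*, 0.65 for *APR3*, 0.58 for *SDI1* and 0.68 for *LSU1*. In mock replicate 2 the deviations were -0.40, -0.22, -0.39, -1.24 and -0.66. Other sulfur genes shared the order in part: 5 of 8 tested genes of the PAPS branch and 4 of 7 sulfur deficiency responders (*LSU2*, *LSU3* and *SDI2* among them). So did 4 of 12 genes of cysteine synthesis, 2 of 5 that supply *SIR* with its cofactor and electrons, and 1 of 2 of glutathione synthesis. The order held for 1 of 9 sulfate transporters, 0 of 5 genes of methionine synthesis and 0 of 1 of sulfite oxidation. The cause of this spread was not tested.

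**Figure D3:**
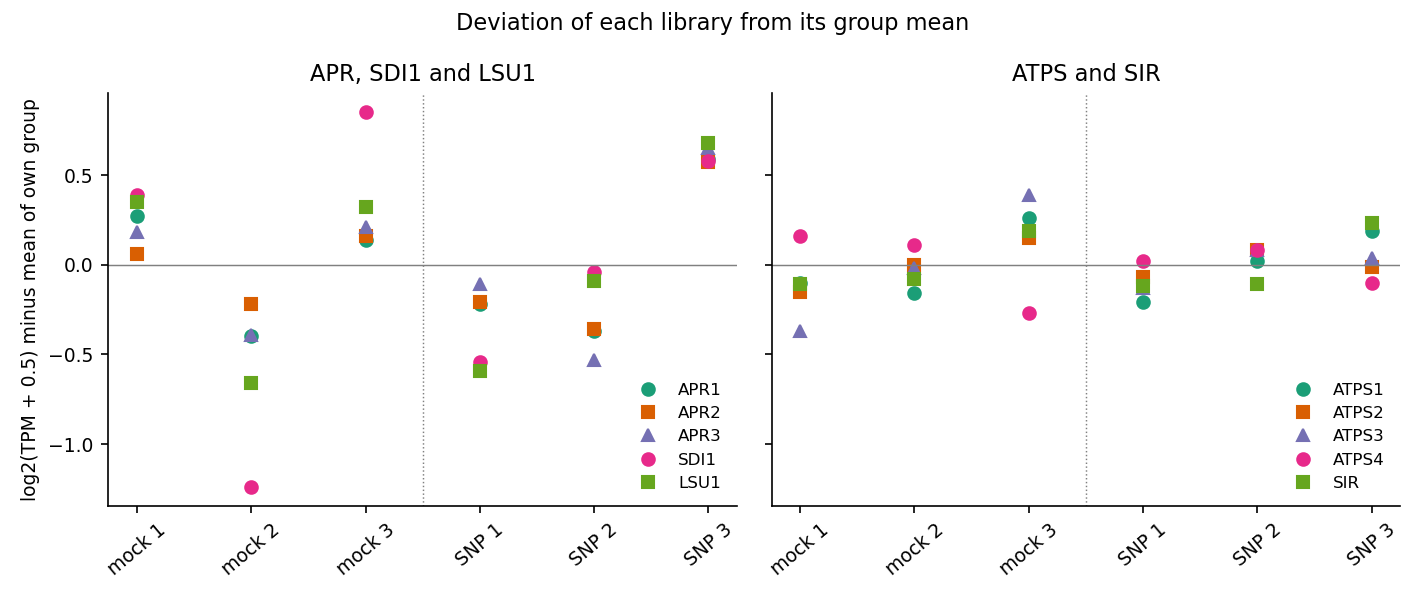
Deviation of each library from the mean of its own group (vertical axis, log2(TPM + 0.5)) for the APS reductase genes, *SDI1* and *LSU1* (left) and for the ATP sulfurylase genes and *SIR* (right). On the left all 5 genes are below 0 in mock replicate 2 and between 0.57 and 0.68 in SNP replicate 3, while on the right no gene deviates by more than 0.39.

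Around the members, 8 lists of sulfur genes held 53 further genes, of which 49 were tested. Of these, 11 rose and 3 fell, or 28.6% called beside 29.6% of all tested genes, with a median log2 fold change of 0.12. Among sulfate transporters 2 of 9 tested genes rose. *SULTR3;3* had 19.6, 27.3 and 22.9 TPM in mock and 69.6, 65.3 and 75.9 TPM in SNP libraries (log2 fold change 1.58, SE 0.13, adjusted p = 0.000405). *SULTR1;2*, a root uptake transporter, was near the filter, at 0.220 TPM in mock and 0.871 TPM in SNP libraries (log2 fold change 0.89, adjusted p = 0.0447). Its mock mean lay below the filter of 0.5 TPM, so it entered the test only through the SNP libraries, where it was higher. The gene rested on 27 to 155 reads and was called in 8 of 15 alternatives. Of the 6 settings with a library left out it kept its call in 1, without SNP replicate 1, and the adjusted p reached 0.138. *SULTR2;1*, the transporter gene among those shown with a near-complete miR395 stretch, was not called (log2 fold change 0.66, adjusted p = 0.154).

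The cysteine synthesis list held the largest fold change among the listed genes. Serine acetyltransferases make O-acetylserine, the carbon skeleton of cysteine, and in this list of 12 tested genes 3 rose and none was called lower with limma. *SERAT2;1*, a plastid serine acetyltransferase, had 5.20, 4.27 and 4.74 TPM in mock and 59.1, 73.3 and 70.1 TPM in SNP libraries (log2 fold change 3.70, SE 0.12, adjusted p = 1.02e-05). Its share of the serine acetyltransferase sum was 3.78% ± 0.153 in mock and 36.0% ± 3.07 in SNP libraries (SD, n = 3). *OASB*, the plastid O-acetylserine lyase that makes cysteine from sulfide, had a log2 fold change of 0.51 (adjusted p = 0.0185). It was called in 13 of 16 alternatives and lost its call without mock replicate 2, SNP replicate 2 or SNP replicate 3 (adjusted p = 0.0511, 0.0641 and 0.0749). *SERAT3;1* had 0.37 (adjusted p = 0.0483) and was called in 7 of 16 alternatives, with an adjusted p of up to 0.167.

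Both genes of glutathione synthesis rose. *GSH1*, which joins glutamate and cysteine, had means of 94.2 TPM in mock and 137.9 TPM in SNP libraries (log2 fold change 0.55, adjusted p = 0.00549), and lost its call with the trend along exon length removed (adjusted p = 0.051). *GSH2*, which adds glycine, had means of 88.1 and 136.0 TPM (log2 fold change 0.63, adjusted p = 0.00381). Of 5 tested genes that supply *SIR* with its cofactor and electrons, *RFNR1*, a ferredoxin reductase of non-green plastids, rose by 0.46 on the log2 scale (adjusted p = 0.0248, called in 10 of 16 alternatives, with an adjusted p of up to 0.105).

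On the PAPS branch, 1 of 8 tested genes rose and 1 fell, with a median log2 fold change of -0.25. *SAL1*, a phosphatase that removes the by-product of sulfation, fell (log2 fold change -0.54, adjusted p = 0.0158), and *SOT18*, a sulfotransferase of glucosinolate synthesis, rose (log2 fold change 0.43, adjusted p = 0.0194). Both were called in 12 of 16 alternatives. *SAL1* lost its call without mock replicate 3 or any 1 of the SNP libraries (adjusted p = 0.0508 to 0.0657), and *SOT18* without any 1 of the SNP libraries (adjusted p = 0.0745 to 0.08) and with 75th percentile scaling. In methionine synthesis, *CGS1*, the entry enzyme, fell (log2 fold change -0.53, adjusted p = 0.00649) and *CBL*, the next enzyme, rose (log2 fold change 0.44, adjusted p = 0.0221). *CGS1* was called in all 16 alternatives and *CBL* in 13, the exceptions being each SNP library left out (adjusted p = 0.0752 to 0.082). Sulfite oxidase, *SO*, was not called (log2 fold change 0.23, adjusted p = 0.107).

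Sulfur deficiency genes outside the members were also split. Of 7 tested, *GGCT2;1*, a glutathione-degrading enzyme, fell from 18.14, 6.997 and 18.94 TPM to 2.47, 3.03 and 5.20 TPM (log2 fold change -1.84, SE 0.41, adjusted p = 0.0163). It was called in 13 of 16 alternatives and lost its call without mock replicate 3, SNP replicate 1 or SNP replicate 2 (adjusted p = 0.0559, 0.0604 and 0.0578). *BGLU28*, a beta-glucosidase, rose (log2 fold change 1.13, adjusted p = 0.0491, called in 9 of 16 alternatives, with an adjusted p of up to 0.139). Its groups overlapped, with SNP replicate 1 at 3.61 TPM and mock replicate 3 at 3.68 TPM. *SLIM1*, a transcription factor of the sulfur deficiency response, was not called (log2 fold change 0.46, adjusted p = 0.0702).

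**Figure D4:**
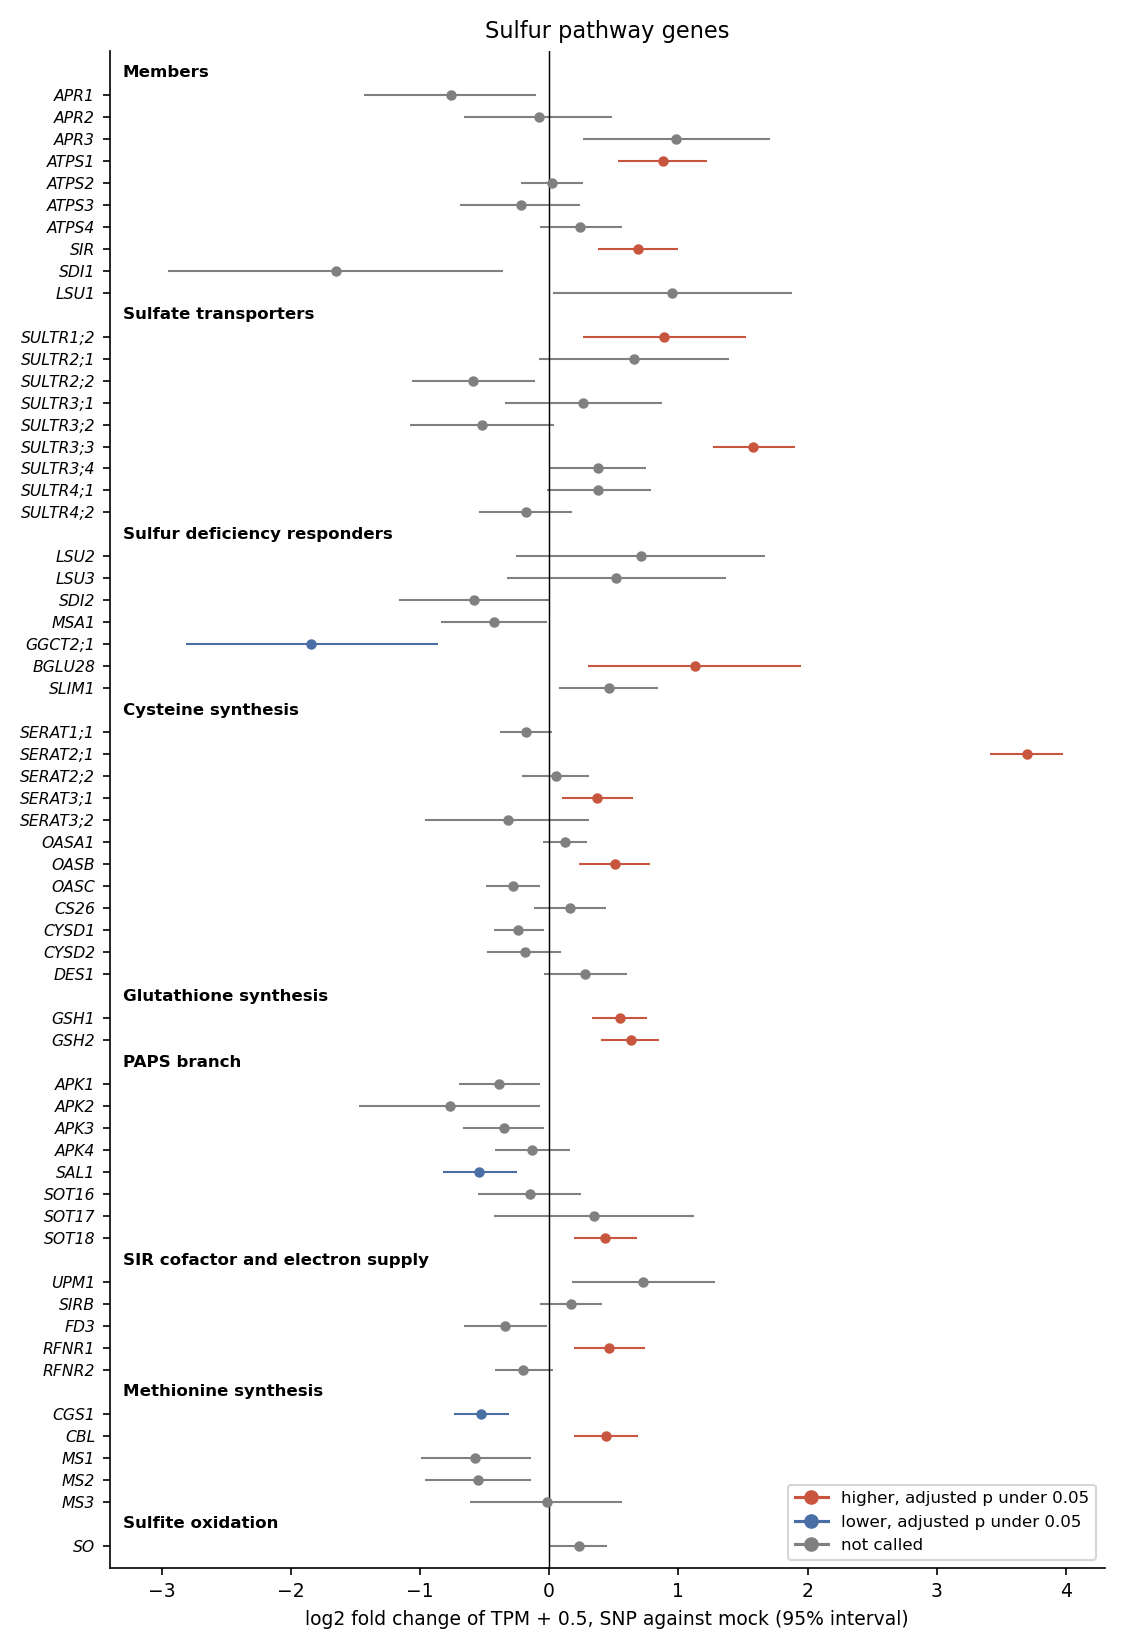
Log2 fold change of TPM + 0.5, SNP against mock (horizontal axis, points with 95% intervals), for the members and the 49 tested genes of the lists, with calls at an adjusted p under 0.05 in red (higher) and blue (lower). *SERAT2;1* is farthest right at 3.70, and among the members the intervals of *ATPS1* and *SIR* are the called ones.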

How the data were processed

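Per the labels and the methods of the study, poly(A) RNA of 3 mock and 3 SNP samples was made into strand-specific libraries, and reads were aligned to TAIR10 with STAR. How reads were counted, which lengths were used and how genes were filtered is not given in the sources used here. The authors deposited TPM values (per gene length, with the same total in every library), and columns with their own fold changes and p-values, which were not used. In 11 rows the deposited symbol reads as a date, *APR2* and *APR3* among them, so rows were matched by locus identifier.

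Genes that averaged 0.5 TPM or more were tested on log2(TPM + 0.5) using limma 3.58.1 (R 4.3.3), with a mean-variance trend and no replicate term. The test was checked on simulated data. Family sums, shares and ratios were compared with a 2-sided exact permutation test. Reads behind a value were recovered from steps of TPM times exon length. Sequences were read from RefSeq TAIR10.1, and positions are on that build. All 10 members are described. Genes of the lists were named where called, otherwise only as a close relative of a member or the main isoform or regulator of a step. *SLIM1*, *SO* and *SULTR2;1* were added for their role. Members and lists were chosen with earlier results of these data known. Alternatives were other pseudocounts (0.1 and 1), filters, scalings, variance models, a replicate block, removal of a trend along exon length, and leaving out each library. No alternative was added later.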

Additional observations from a re-analysis of the deposited data

How the results depend on the processing

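Of 160 comparisons of a member with an alternative, 144 kept their direction and side of the threshold, 9 gained a call, 7 changed sign and 0 lost a call. The 2 members called became 5 under the replicate block (*APR1*, *APR3*, *ATPS1*, *SIR* and *SDI1*), beside 28.9% of all tested genes. They became 4 once the trend along length was removed (*APR3*, *ATPS1*, *SIR* and *SDI1*), beside 38.9% of all genes. Leaving out a library gave 2 to 3, *ATPS1* and *SIR* each time. The share of all genes then ran from 15.2% (without SNP replicate 3) to 41.8% (without mock replicate 1). With the fold change of 1.5 and p under 0.01 the 2 became 5 under the replicate block (18.2% of all genes). The count was 1 (*ATPS1*) once the length trend was taken out (17.8%). It was 2 to 3 when a library was left out, beside 14.4% (without SNP replicate 3) to 17.6% (without mock replicate 2) of all genes. Without SNP replicate 3 the 2 were *APR1* and *ATPS1*, not *SIR*. With a fold change limit of 2 it was 0, beside 7.77% of all genes, while 6 members (42.1% of all genes) have an unadjusted limma p under 0.05. Same-numbered mock and SNP libraries correlated at 0.304, -0.002 and -0.091 in their deviations, so the numbers were not taken to pair the samples. The 14 list genes called, of 49 tested, became 4 with the fold change and p limits (*SULTR3;3*, *GGCT2;1*, *SERAT2;1* and *GSH2*). Under these limits 16.9% of all tested genes passed. The sign of *ATPS2* (0.02) changed to -0.03 with median-of-ratios scaling, -0.06 with 75th percentile scaling and -0.02 with the length trend removed, and ranged from -0.05 to 0.10 when a library was left out. That of *APR2* (-0.08) ranged from -0.37 to 0.10. Of 223 comparisons of the 14 called list genes, 176 kept the call and 47 lost it, and of 48 of the 3 uncalled relatives (*LSU2*, *LSU3* and *SDI2*), 2 gained one. The causes were not tested. Among the members, depth limits *LSU1* and *SDI1* most, with as few as 15 and 38 reads.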
